A study of Physcomitrium patens with 12 samples.

Results

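The genes described here are 150 abundant antheridium genes of the moss Physcomitrium patens whose nearest neighbours on the chromosome are not antheridium genes. They were chosen from wild type libraries. Levels are in CPM, the counts of a gene per 1000000 counts of its library. A gene was taken as an antheridium gene where its mean in wild type antheridia was at least 5 CPM and the log2 ratio of wild type antheridia to wild type archegonia, with 1 CPM added to each mean, was at least 3. Of 32926 genes in the count table, 573 met this, 570 of them with an identifier that places them on a numbered chromosome. In the order of identifiers along each chromosome, 476 of these had no other antheridium gene in the row before or after, and the 150 of them with the highest mean in wild type antheridia are the members. The levels in wild type antheridia and wild type archegonia therefore chose the members and are given as a description, while the libraries of the mutant line were not used to choose them.

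RNA-seq libraries were made from the mature sexual organs (gametangia) of the strain Gransden on day 18 of sporophyte induction. There were 4 groups of 3 libraries, each library from 8 pooled organs: antheridia of the PpPINC mutant line pinC#29, archegonia of pinC#29, antheridia of wild type and archegonia of wild type. All 6 mutant libraries are of 1 line, so the mutation and whatever else sets that line apart cannot be told apart. The titles call the libraries of a group biological replicates, and the labels do not say whether they are from separate cultures. The p-values then measure only the spread between the samples, which may be technical. Sperm formation and aborted sporophytes are the questions named in the title of the study.

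Antheridia are the male organs of mosses, a jacket of sterile cells around the cells that divide and mature into swimming sperm with flagella. Archegonia are flask-shaped female organs with a neck through which sperm reach a single egg. PIN proteins such as PpPINC carry the plant hormone auxin out of cells. Neither the files nor the reference pair the identifiers with names or products, so the genes are given by identifier and no function is assigned to any of them.

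Each library held 19038033 to 39833129 counts. In 9 libraries 21654 to 24802 genes had a count, compared with 19088 in mutant antheridia 2, 20359 in mutant antheridia 3 and 19803 in mutant archegonia 3, the 3 libraries poorest in detected genes. The 50 archegonium genes found by the mirror of the rule held 0.119% to 0.183% of counts in mutant antheridia, 2.52% to 2.97% in mutant archegonia, 0.137% to 0.589% in wild type antheridia and 4.11% to 7.41% in wild type archegonia. Wild type libraries chose these genes, so only the mutant libraries check the labels here, and the mutant antheridia were all below the mutant archegonia. The targeted gene is not named in the files. A locus remembered from the literature as PpPINC, Pp3c10_24880, had 66, 0 and 0 counts in mutant antheridia, 3, 2 and 0 in mutant archegonia, 66, 39 and 165 in wild type antheridia and 94, 38 and 56 in wild type archegonia. The library labelled mutant antheridia 1 is thus within the wild type range at this candidate locus, and the share, counts of calls and medians of mutant antheridia are given with and without it.

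The 150 genes held a large share of the RNA of antheridia of both genotypes and very little of that of archegonia. They took 5.54%, 15.0% and 7.62% of all counts in mutant antheridia 1, 2 and 3, against 0.137%, 0.156% and 0.212% in mutant archegonia. In wild type antheridia they took 7.05%, 5.48% and 8.38%, against 0.186%, 0.209% and 0.559% in wild type archegonia. Mutant antheridia 2 stood above every other library, and wild type archegonia 3 above the other archegonia. Mutant antheridia 2 was also the library with the fewest detected genes, 19088, and the part of that in its share was not tested. The means were 9.39 ± 4.99% in mutant antheridia and 0.168 ± 0.0389% in mutant archegonia, and 6.97 ± 1.45% in wild type antheridia and 0.318 ± 0.209% in wild type archegonia (SD, n = 3 each). Without mutant antheridia 2 the mutant antheridia averaged 6.58%, without the library labelled mutant antheridia 1 they averaged 11.3%, and without wild type archegonia 3 the wild type archegonia averaged 0.198%. In these libraries of whole organs, fewer cells of a type and less RNA per cell cannot be told apart.

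**Figure D1:**
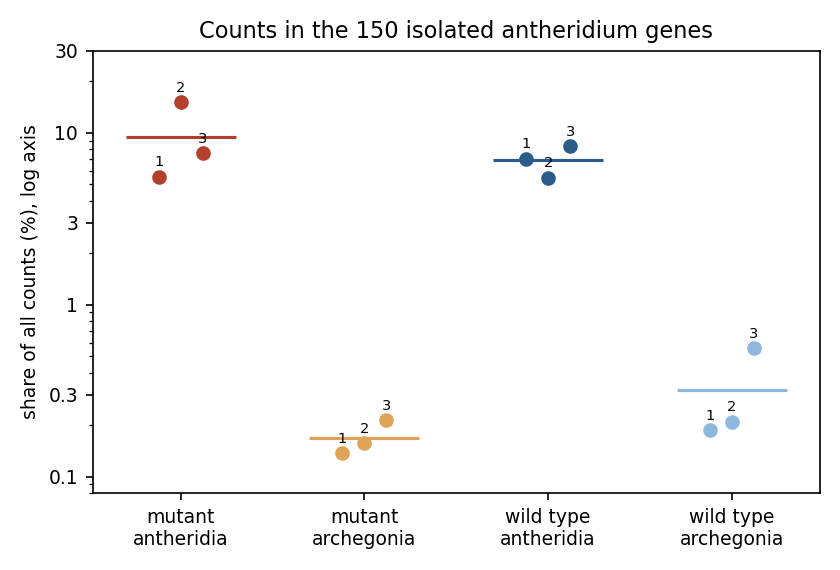
Share of all counts (percent, log axis) that fell in the 150 genes, 1 point per library and a bar at the mean of each group of 3. Antheridium libraries lie between 5.48% and 15.0% and archegonium libraries between 0.137% and 0.559%, with no overlap.

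Every member had counts in all 6 antheridium libraries. In mutant archegonia 6, 1 and 58 members had no count in libraries 1, 2 and 3, and in wild type archegonia 7, 4 and 2 had none. A count of 0 allows up to 3 counts, which was 0.0753 to 0.158 CPM per library. Mutant archegonia 3, where 58 members were at 0, is also a library with few detected genes over all genes, and the part of that in the zeros was not tested. The median member had 192, 550 and 301 CPM in mutant antheridia, against 2.47, 4.69 and 2.41 CPM in mutant archegonia, and 204, 216 and 290 CPM in wild type antheridia, against 3.74, 3.27 and 12.2 CPM in wild type archegonia. Of the 500 most abundant genes of a library, 52, 113 and 80 were members in mutant antheridia and at most 1 in any mutant archegonium library. Wild type antheridia had 63, 66 and 89 members among their 500 most abundant genes, and wild type archegonia at most 2.

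**Figure D2:**
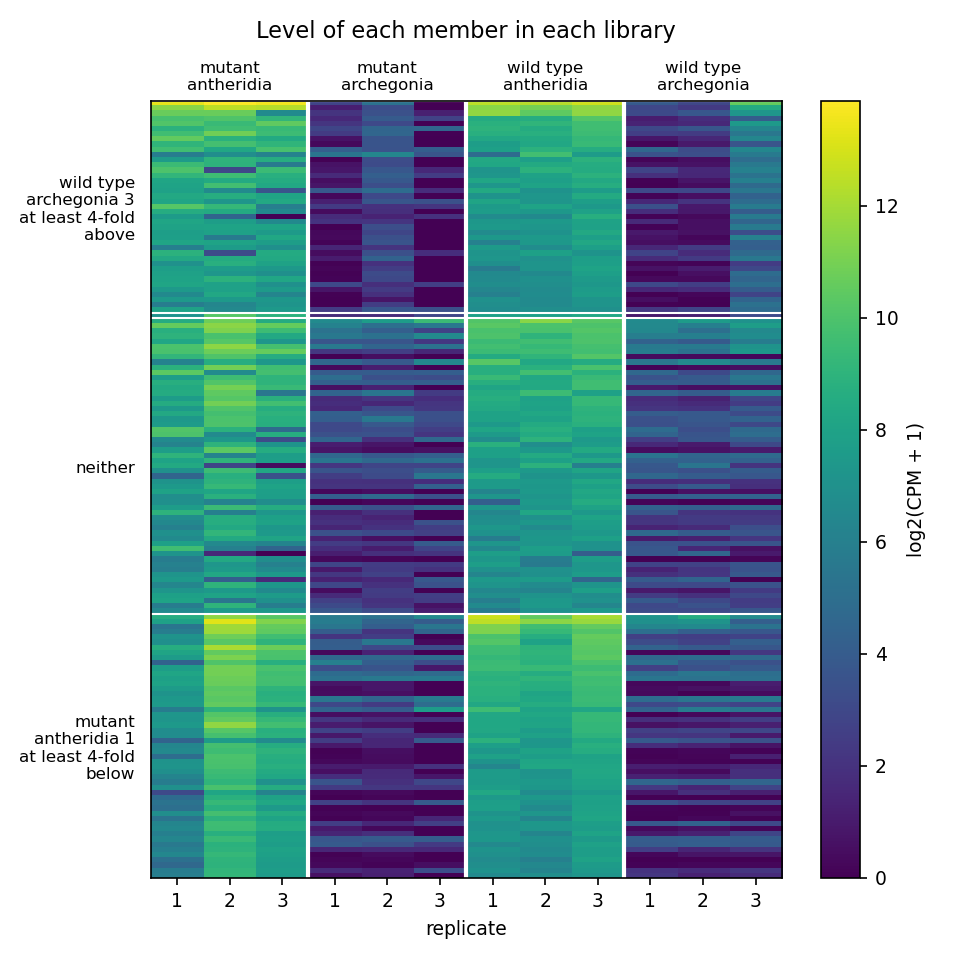
Level of each of the 150 genes (rows) in each of the 12 libraries (columns), as log2(CPM + 1) on the colour scale. Columns are grouped by genotype and organ. Rows are grouped by the sets described below: high in wild type archegonia 3, low in the library labelled mutant antheridia 1, both or neither. Within a set they are ordered by mean level in wild type antheridia. The antheridium columns are high from top to bottom and the archegonium columns low, with a brighter column for wild type archegonia 3, where the median member had 12.2 CPM.

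The level in wild type antheridia, which set the cut, ran from 115.16 to 6184.97 CPM. Around the cut, Pp3c2_13540 was the last gene in at 115.16 CPM and Pp3c4_25580 the first out at 114.434 CPM. At the ratio threshold, Pp3c21_7530 was just inside with a log2 ratio of 3.01 and Pp3c11_14270 just outside with 2.95. The list is thus the upper end of a continuous ranking.

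The 4 most abundant members show how far levels varied between libraries of a group. Pp3c16_19400, the most abundant, had 10374, 15012 and 12505 CPM in mutant antheridia, against 6.25, 36.6 and 0 CPM in mutant archegonia. In wild type it had 5561, 5412 and 7582 CPM in antheridia, against 14.3, 6.67 and 1533 CPM in archegonia. Its antheridium libraries were all above its archegonium libraries in each genotype, and wild type archegonia 3 had a far higher level than the other archegonia of wild type. The fitted log2 fold change of mutant antheridia over mutant archegonia was 10.0035 ± 2.38 (SE), with an edgeR adjusted p of 0.0219. This call was lost without mutant archegonia 1 (edgeR adjusted p = 0.1) and without mutant archegonia 3 (0.0652). It was also lost with limma-voom (0.091), with edgeR's legacy fit (0.0648) and with the 6 libraries compared alone (0.0623). The value was 12.29 without mutant archegonia 2.

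The second in rank, Pp3c2_3446, had 379, 2905 and 1235 CPM in mutant antheridia, against 53.6, 37.1 and 90.2 CPM in mutant archegonia. In wild type it had 7094, 1473 and 4192 CPM in antheridia, against 145, 375 and 97.0 CPM in archegonia. Its antheridia did not overlap with archegonia in either genotype, and its levels in antheridia spread widely in both. Mutant antheridia over mutant archegonia gave a log2 fold change of 4.96 ± 0.96 (SE), with an edgeR adjusted p of 0.00662, and 3.95 without mutant antheridia 2.

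Pp3c3_7430 had 242, 9924 and 2412 CPM in mutant antheridia, against 56.4, 22.4 and 15.6 CPM in mutant archegonia, and 5839, 2792 and 3403 CPM in wild type antheridia, against 126, 138 and 17.6 CPM in wild type archegonia. The library labelled mutant antheridia 1 was far below the other mutant antheridia for this gene, and still above every archegonium library. Its log2 fold change of mutant antheridia over mutant archegonia was 7.42 ± 1.38 (SE), with an edgeR adjusted p of 0.00541, and 5.65 without mutant antheridia 2. Without mutant archegonia 1 it was 8.06, and without the library labelled mutant antheridia 1 it was 7.84. With the 6 libraries compared alone its edgeR adjusted p was 0.0564. Pp3c2_4510 had 2681, 5780 and 5223 CPM in mutant antheridia, against 1.21, 8.79 and 0 CPM in mutant archegonia, and 2758, 2043 and 3049 CPM in wild type antheridia, against 6.81, 4.20 and 352 CPM in wild type archegonia. As for Pp3c16_19400, wild type archegonia 3 was far above the other archegonia of wild type. The log2 fold change of Pp3c2_4510 in the mutant was 10.65 ± 2.09 (SE), with an edgeR adjusted p of 0.00747, 10.03 without mutant archegonia 3 and 13.33 without mutant archegonia 2. When the 3 libraries poorest in detected genes were left out, only the library labelled mutant antheridia 1 remained for mutant antheridia. The log2 fold changes of Pp3c2_3446, Pp3c3_7430 and Pp3c2_4510 were then 3.10, 2.68 and 8.997.

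The comparison of antheridia with archegonia of the mutant line shows the organ difference in libraries that played no part in choosing the genes. Here 136 of the 150 members were called higher in mutant antheridia and 0 lower, by edgeR's quasi-likelihood test at an adjusted p under 0.05, against 6.74% of all 22792 genes tested called higher and 1.33% called lower. All 150 members were among the genes tested. The median log2 fold change was 6.70 over the members and -0.02 over all genes tested. Every member had a positive value, compared with 49.0% of all genes tested, and 147 of them, or 98.0%, had an unadjusted p under 0.05, against 21.1% of all genes tested. The middle range, between the quartiles, was 5.58 to 8.41, and the extremes were 1.11 and 13.88. Fitted values were below 2 for 3 members, from 2 to 4 for 7, from 4 to 6 for 42, from 6 to 8 for 54, from 8 to 10 for 18 and at 10 or above for 26. The members made up 8.85% of the 1537 genes called higher in mutant antheridia. The spread of each gene was fitted over all 12 libraries, including the wild type ones that chose the members. With the 6 mutant libraries alone, 110 members were called higher. The share of all genes called in that fit is not given here, so how far the lower count is general cannot be told.

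Other measures of the same difference were close to this. The mutant antheridia were all above the mutant archegonia for 135 members and all below for 0, against 8.94% of genes tested that were wholly above and 11.7% that were wholly below. Of the 146 members with an adjusted p in the authors' deposited table, 139 were higher and 0 lower at the same threshold, against 6.26% and 1.3% of genes, with a median log2 fold change of 5.75. DESeq2 called 139 of 145 members higher, against 9.05% of genes, and limma-voom 125 of 150, against 4.77% of genes. Both called 0 members lower, against 2.78% of genes with DESeq2 and 1.67% with limma-voom. With the level and ratio of the rule applied to the mutant libraries in place of wild type, 143 members met both, against 3.22% of all genes in the count table. Without the library labelled mutant antheridia 1 there were 133 members called, and without mutant antheridia 2 there were 126. Without mutant antheridia 2, mutant antheridia 3 and mutant archegonia 3, the libraries with the fewest detected genes, the median log2 fold change was 5.77. That fit has the library labelled mutant antheridia 1 as its only mutant antheridium library. The median was 6.54 without the library labelled mutant antheridia 1. It was 7.61 without mutant archegonia 2, the mutant archegonium library where the median member was highest.

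**Figure D3:**
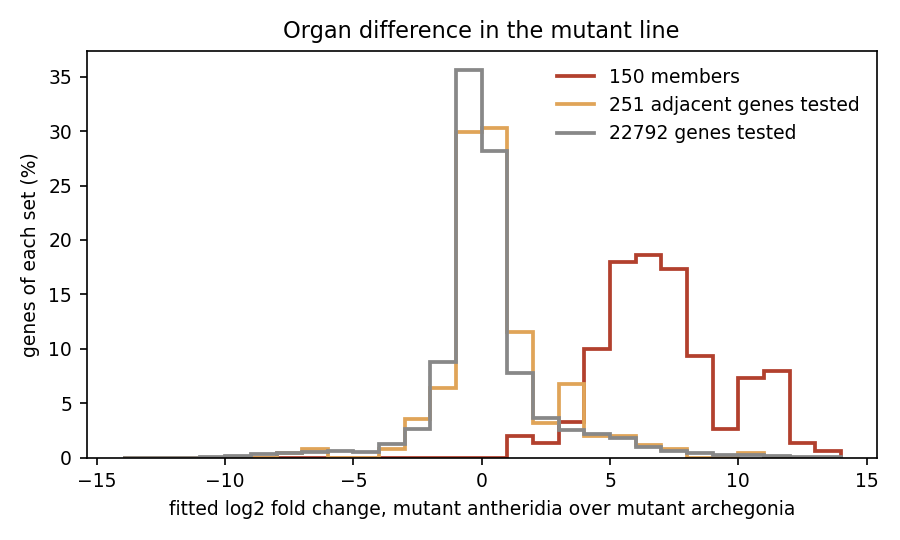
Distribution of the fitted log2 fold change of mutant antheridia over mutant archegonia, as the percent of genes of each set in bins 1 wide, for the 150 members, the 251 tested genes in the rows next to them and all 22792 genes tested. The members lie between 1.11 and 13.88 with a median of 6.70, while the adjacent genes centre at 0.18 and all genes tested at -0.02.

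The members with the largest fitted difference between the organs of the mutant were nearly without counts in its archegonia. Pp3c20_1480 had 32.9, 452 and 182 CPM in mutant antheridia, against 0.0525, 0 and 0 CPM in mutant archegonia, where the whole group had 1 count. The ratio of the mean in mutant antheridia to that single count was 16801, with a 95% interval from counting error alone of 3015 to 663596. Its fitted log2 fold change was 13.88 ± 1.51 (SE), with an edgeR adjusted p of 1.6e-04. Without mutant antheridia 2 the fitted value was 12.73, and without the library labelled mutant antheridia 1 it was 14.28. Without mutant archegonia 1 no count remained in mutant archegonia, and the mutant antheridia were at least 4189.7-fold higher, against 3 counts over both remaining libraries. In wild type it had 230, 99.1 and 243 CPM in antheridia, against 0.0966, 0 and 0.160 CPM in archegonia.

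Pp3c26_7260 had 552, 1058 and 389 CPM in mutant antheridia, against 0, 0.430 and 0 CPM in mutant archegonia. Its log2 fold change was 12.36 ± 1.14 (SE), with an edgeR adjusted p of 1.4e-05. Without mutant archegonia 2 the other mutant archegonia had no count, and the mutant antheridia were at least 11105-fold higher against 3 counts over both; without mutant antheridia 2 the fitted value was 11.75 and without mutant archegonia 3 it was 11.66. In wild type it had 361, 540 and 1158 CPM in antheridia, against 0.338, 0.264 and 0.200 CPM in archegonia. Both genes were thus near absent from all 6 archegonium libraries and present in all 6 antheridium libraries.

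The 14 members that did not pass the test between the organs of the mutant had fitted log2 fold changes of 1.11 to 6.42, and the lowest of their edgeR adjusted p was 0.0559. Their median mean level in mutant archegonia was 10.3 CPM, against 3.67 CPM for the 136 that passed. For 3 of them the mutant antheridia were nonetheless all above the mutant archegonia. The smallest fitted value belonged to Pp3c9_11060, which is described with the comparison of genotypes. Pp3c16_3130, chosen after its values were seen, had the highest level of a member in any mutant archegonium library, with 381, 1789 and 373 CPM in mutant antheridia against 99.2, 204 and 707 CPM in mutant archegonia. Mutant archegonia 3 thus exceeded mutant antheridia 3 and the library labelled mutant antheridia 1, and the log2 fold change was 1.61, with an edgeR adjusted p of 0.285.

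A different profile was found in 5 members, chosen after their values were seen, which in the library labelled mutant antheridia 1 were at least 16-fold above the mean of the other mutant antheridia on the log2(CPM + 1) scale: Pp3c26_14380, Pp3c3_34620, Pp3c6_26780, Pp3c10_11150 and Pp3c11_1150. They are 3.33% of the members. The same gap was seen in 1.93% of 1448 other genes, so it is not particular to the members. These other genes reach the members' minimum level in wild type antheridia and are not antheridium genes by the rule. Pp3c10_11150 had 142, 2.04 and 0.0251 CPM in mutant antheridia, the last of these a single count, against 1.21, 2.62 and 3.23 CPM in mutant archegonia. In wild type it had 215, 201 and 16.3 CPM in antheridia, against 13.3, 23.0 and 1.00 CPM in archegonia, so wild type antheridia 3 and wild type archegonia 3 were the low libraries. Pp3c3_34620 had 198, 20.9 and 0.0753 CPM in mutant antheridia, against 2.21, 1.56 and 2.91 CPM in mutant archegonia. Its levels in wild type were 104, 96.4 and 413 CPM in antheridia, against 0.0966, 0.264 and 52.4 CPM in archegonia, where library 3 of each organ was the high one. Of the 5, Pp3c6_26780 was called between the organs of the mutant, with a log2 fold change of 6.58 and an edgeR adjusted p of 0.0121, and the other 4 were not. Without the library labelled mutant antheridia 1 its value was 3.94 and its edgeR adjusted p 0.0312.

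Members tended to be high or low in the same libraries of a group. Mutant antheridia 2 was the highest of its group for 117 members, or 78.0%, compared with 36.5% of the 1448 other genes of that level. The library labelled mutant antheridia 1 was the lowest for 98, or 65.3%, compared with 34.3% of the other genes. Wild type antheridia 3 was the highest of its group for 110 members, or 73.3%, against 29.9%, and wild type archegonia 3 for 99, or 66.0%, against 35.2%. Among mutant archegonia, library 2 was the highest for 78 members, or 52.0%, against 30.9%. The median coefficient of variation between libraries of a group was 80.5% over members and 48.3% over the other genes for mutant antheridia. For mutant archegonia it was 88.2% and 39.7%, for wild type antheridia 39.9% and 25.8%, and for wild type archegonia 69.0% and 27.6%, members first in each. The other genes were matched by level in wild type antheridia only, not in archegonia, where the median member had 2.41 to 12.2 CPM. The part of such low levels in the members' variation between archegonia was not tested.

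The members that were high in wild type archegonia 3 and those that were low in the library labelled mutant antheridia 1 were nearly all different genes. The same held for the other genes of that level, so it is not particular to the members. Wild type archegonia 3 was at least 4-fold above the mean of the other wild type archegonia, on the log2(CPM + 1) scale, for 42 members. That is 28.0% of them against 4.01% of the 1448 other genes, which hold no antheridium genes. The 326 less abundant isolated antheridium genes were also high there, with 0.132% of its counts against 0.0408% and 0.0330% in wild type archegonia 1 and 2. For the 94 antheridium genes with an adjacent antheridium gene the shares were 0.0462% against 0.0135% and 0.0174%. The library labelled mutant antheridia 1 was at least 4-fold below the mean of the other mutant antheridia for 52 members, or 34.7% against 3.59%. A single member had both gaps, 41 had the first alone, 51 the second alone, and 57 had neither. Of the 1448 other genes, 58 had the first gap, 52 the second and 1 both. Both differences were also correlated with their signs kept, each as the named library minus the mean of the other libraries of its group. Over the 150 members the Spearman coefficient was 0.47 and the Pearson coefficient 0.25. Members higher in wild type archegonia 3 thus tended to be less low in the library labelled mutant antheridia 1. The coefficients were 0.48 and 0.50 over the other genes, and all of these points share the same 6 libraries. The sets were made from these values, so they carry no test.

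**Figure D4:**
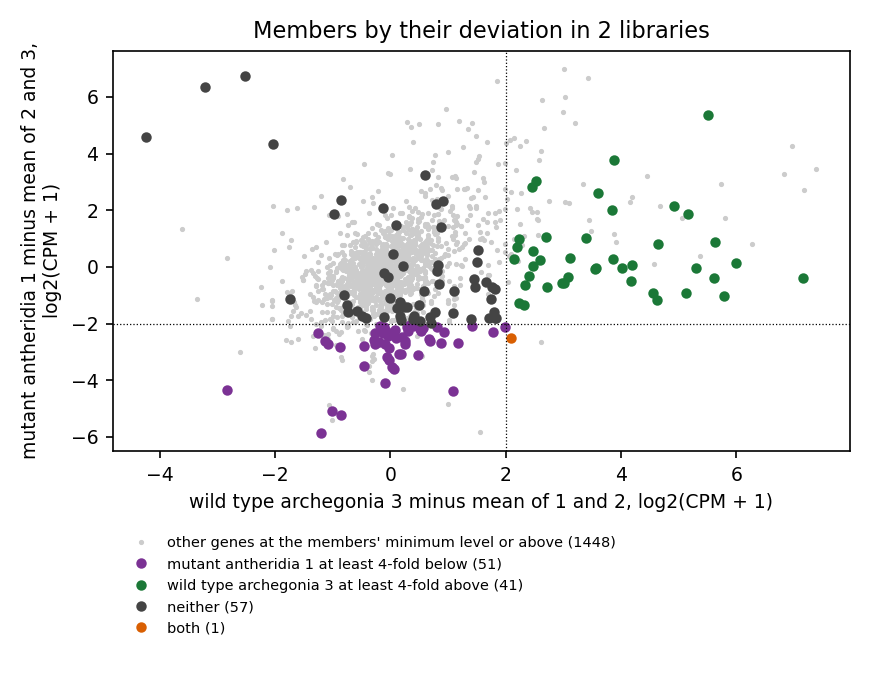
Each of the 150 members placed by its level in wild type archegonia 3 minus the mean of the other wild type archegonia (horizontal, log2(CPM + 1)) and its level in the library labelled mutant antheridia 1 minus the mean of the other mutant antheridia (vertical), with the 1448 other genes in grey. The 42 members high in wild type archegonia 3 and the 52 low in the library labelled mutant antheridia 1 share a single gene. Of the 1448 other genes, 58 and 52 had these gaps and also share 1 gene.

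The 51 genes that were low in the library labelled mutant antheridia 1 alone had a median of 92.6 CPM there, and 898 and 414 CPM in mutant antheridia 2 and 3. Their medians in wild type antheridia were 250, 242 and 338 CPM. They held 0.613% of the counts of the library labelled mutant antheridia 1, 7.05% of those of mutant antheridia 2 and 2.78% of those of mutant antheridia 3, against 3.34%, 1.71% and 3.38% of those of wild type antheridia. In wild type antheridia, which played no part in this split, library 2 was the lowest of its group for 41 of these 51 genes.

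The 41 genes that were high in wild type archegonia 3 alone were even across the mutant antheridia, with medians of 284, 313 and 267 CPM, which the split in part fixes, since genes low in the library labelled mutant antheridia 1 had been set aside. In mutant archegonia, which were not used for the split, their medians were 0.735, 8.94 and 0 CPM. Mutant archegonia 2 was the highest of its group for 36 of these 41 genes, and 25 of them were at 0 in mutant archegonia 3. In wild type their medians were 161, 173 and 263 CPM in antheridia, against 1.64, 1.06 and 31.1 CPM in archegonia. Most of the 0.559% of counts that the 150 members held in wild type archegonia 3 was in these 41 genes, at 0.354%. The split in part fixes this too, since these genes were picked as high in that library. The 50 archegonium genes held 4.26% of that library, within the range of the other wild type archegonia, 4.11% to 7.41%. Whether RNA of antheridia in that library plays a part in these levels was not tested.

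The 57 genes with neither gap had medians of 204, 499 and 218 CPM in mutant antheridia, against 4.73, 4.80 and 4.98 CPM in mutant archegonia. In wild type their medians were 191, 222 and 259 CPM in antheridia, against 10.5, 9.35 and 10.3 CPM in archegonia. Mutant antheridia 2 was high for this set too, and the archegonium medians were even within each genotype. In mutant archegonia 3, 11 of the 57 were at 0, compared with 22 of the 51 and 25 of the 41.

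Mutant and wild type antheridia share the high level of these genes, and no member was called between them. The wild type antheridia had been chosen for high levels, which by itself lowers the ratio of mutant to wild type, so the values are a description. By edgeR 0 of 150 members were called at an adjusted p under 0.05, against 0.0% of all genes called higher in the mutant and 0.0132% called lower, and 10 members, or 6.67%, had an unadjusted p under 0.05, against 8.39% of all genes tested. DESeq2 called 0 of the 145 members to which it gave an adjusted p, against 0.263% of genes called higher and 0.578% lower. Limma-voom called 0 of 150, against 0.0% of genes. The authors' deposited table has 0 of 147, against 0.0238% of genes higher and 0.0476% lower. The smallest edgeR adjusted p of a member was 0.566. The median log2 fold change was 0.73 over the members and 0.05 over all genes tested, with quartiles of the members at 0.36 and 1.01 and extremes of -1.93 and 2.00. It was positive for 125 members and negative for 25, compared with 52.3% positive over all genes tested. This upward displacement rested on mutant antheridia 2, without which the median was 0.08. It was -0.68 without the 3 libraries poorest in detected genes, a fit whose only mutant antheridium library is the one labelled mutant antheridia 1. Without the library labelled mutant antheridia 1 it was 0.92. The mutant antheridia were all above the wild type antheridia for 9 members, against 2.92% of genes tested, and all below for 0, against 7.63%. A p that misses the threshold does not show equal levels, and the median coefficient of variation of the members in mutant antheridia was 80.5%.

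No member passed the test, so those with the smallest p are given. The members with the smallest p and a positive value were Pp3c18_13110 and Pp3c13_15660. Pp3c18_13110 had 204, 697 and 381 CPM in mutant antheridia, against 157, 147 and 258 CPM in wild type antheridia. Only the lowest mutant library was within the wild type range, and the log2 fold change was 1.38 ± 0.50 (SE), with an edgeR adjusted p of 0.566. Pp3c13_15660 had 213, 1311 and 391 CPM in mutant antheridia, against 234, 170 and 348 CPM in wild type antheridia, with a log2 fold change of 1.55 ± 0.58 (SE) and an edgeR adjusted p of 0.566. When the 3 libraries poorest in detected genes were left out, only the library labelled mutant antheridia 1 remained for mutant antheridia. The value of Pp3c13_15660 was then -0.20, and that of Pp3c18_13110 was 0.16. Both were smaller without mutant antheridia 2 alone, at 0.35 for Pp3c13_15660 and 0.72 for Pp3c18_13110.

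The members with the smallest p and a negative value were Pp3c12_3400 and Pp3c9_11060. Pp3c12_3400 had 20.5, 193 and 104 CPM in mutant antheridia, against 483, 153 and 338 CPM in wild type antheridia, and the groups overlapped. Its log2 fold change was -1.40 ± 0.77 (SE), with an edgeR adjusted p of 0.648. It was -0.96 without the library labelled mutant antheridia 1 and -2.26 without mutant antheridia 2. Without the 3 libraries poorest in detected genes, which leaves the library labelled mutant antheridia 1 alone for mutant antheridia, it was -3.93. Pp3c9_11060 had 57.9, 113 and 73.7 CPM in mutant antheridia, against 28.8, 830 and 198 CPM in wild type antheridia, with a log2 fold change of -1.93 ± 1.02 (SE) and an edgeR adjusted p of 0.634. The value rested on wild type antheridia 2, without which it was -0.35. This gene also had the smallest difference between the organs of the mutant among the members, at 1.11 on the log2 scale (edgeR adjusted p = 0.612).

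**Figure D5:**
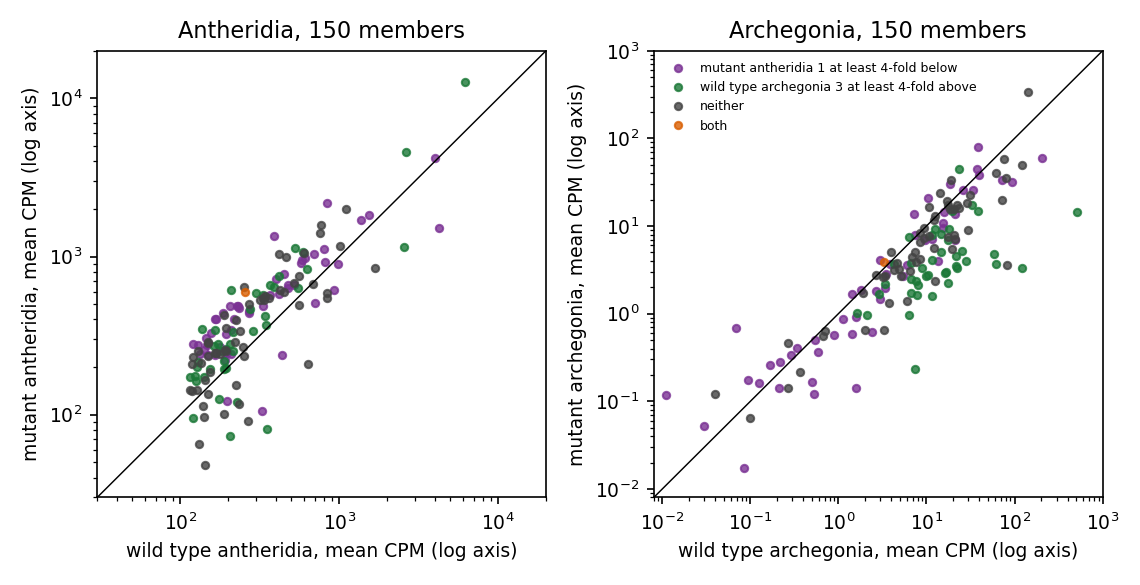
Mean CPM of each of the 150 members in the mutant line (vertical, log axis) against wild type (horizontal, log axis), for antheridia and for archegonia, with the line of equal levels and colours for the sets named in the legend. The points of antheridia follow the line and lie on the whole above it, at a median log2 fold change of 0.73 that was 0.08 without mutant antheridia 2, and those of archegonia spread more widely, around a median of -0.63.

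The order of the members by level was much the same in both genotypes. Over the 150 genes, mean levels in mutant and wild type antheridia gave a Spearman coefficient of 0.80, and a Pearson coefficient of 0.82 on the log2(CPM + 1) scale. For mutant and wild type archegonia the values were 0.85 and 0.83, and for antheridia and archegonia of wild type they were 0.42 and 0.54. The points of each correlation are genes measured in the same libraries, and library depth and amplification are common to all of them. Had the 476 isolated antheridium genes been ranked by mutant antheridia, 128 of the 150 members would have been among the first 150.

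Mutant archegonia, like wild type archegonia, had low levels of these genes, and the members' median log2 fold change of mutant over wild type archegonia was -0.63, compared with -0.03 over all genes tested. Low levels in wild type archegonia were part of the choice, which by itself raises this ratio. By edgeR 0 of 150 members were called, against 0.0% of all genes in either direction, and 18 members, or 12%, had an unadjusted p under 0.05, against 1.13% of all genes tested. DESeq2 called 1 of 145 lower and 0 higher, against 0.0222% and 0.0178% of genes, and limma-voom called 0, against 0.0% of genes. The authors' deposited table has 1 of 93 lower and 0 higher, against 0.0222% and 0.0443% of genes. The fitted value was negative for 115 members and positive for 35, with extremes of -5.14 and 3.22. The mutant archegonia were all below the wild type archegonia for 15 members, against 5.85% of genes tested, and all above for 1, against 2.54%. The negative median rested on wild type archegonia 3, without which it was 0.12.

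Both DESeq2 and the authors' deposited table called the same gene, Pp3c7_8820. It had 3.78, 5.04 and 1.87 CPM in mutant archegonia, against 54.8, 35.8 and 159 CPM in wild type archegonia. All 3 mutant archegonia were below all 3 wild type archegonia, and the edgeR log2 fold change was -4.54 ± 0.69 (SE), with an edgeR adjusted p of 0.448. DESeq2 gave an adjusted p of 9.6e-10. In the authors' deposited table the log2 fold change is -2.61 and the adjusted p 2.3e-06. Without wild type archegonia 3 the edgeR log2 fold change was -3.63. In antheridia the gene had 953, 1741 and 1551 CPM in the mutant, against 691, 745 and 825 CPM in wild type, where every mutant library was above every wild type library.

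Of the other members with the smallest p between the archegonia, 2 had very few counts or rested on single libraries. Pp3c12_3940 had 0, 0.703 and 0 CPM in mutant archegonia, against 0.435, 0.0661 and 21.6 CPM in wild type archegonia, with a log2 fold change of -4.90 ± 1.56 (SE) and an edgeR adjusted p of 1. Without wild type archegonia 3 its value was 0.15. Pp3c1_38140 had 0.0525, 0.195 and 1.81 CPM in mutant archegonia, against 0, 0.165 and 0.0401 CPM in wild type archegonia, and its log2 fold change of 3.22 ± 1.63 (SE), with an edgeR adjusted p of 1, was 0.76 without mutant archegonia 3. Pp3c27_3460 was even between libraries, with 40.2, 24.7 and 35.7 CPM in mutant archegonia against 18.9, 19.5 and 18.6 CPM in wild type archegonia. The mutant archegonia were all above the wild type ones for this gene, with a log2 fold change of 0.83 ± 0.44 (SE) and an edgeR adjusted p of 1.

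The difference between genotypes in antheridia, less the same difference in archegonia, was called by edgeR for 0 of 150 members, against 0.0% of all genes in either direction, and 19 members, or 12.7%, had an unadjusted p under 0.05, against 4.22% of all genes tested. The median of this difference of log2 fold changes was 1.36 over the members and 0.06 over all genes tested. Its wild type libraries are those that chose the members. For the contrast that chose them, wild type antheridia over wild type archegonia, edgeR called 116 of the 150 higher and 0 lower, against 2.56% and 0.39% of all genes, and nothing is read from that count.

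The members lie on all 27 chromosomes, from 1 on chromosome 8, which is 0.0864% of its genes, to 11 on chromosome 6, which is 0.778%. The highest share was on chromosome 13, with 10 of 1070 genes or 0.935%, and the share over all chromosomes was 0.465%. Consecutive members of a chromosome were a median of 120 rows of the count table apart over 123 gaps, and the smallest gap, of 2 rows, occurred for 2 pairs. Rows follow the identifiers, and distances in bases were not used here.

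The genes next to the members had far lower levels than the members. The 300 adjacent rows hold 298 distinct genes, of which 23 had no count in any library, 210 reached 5 CPM in wild type antheridia and 251 were tested. By rule none of them is an antheridium gene in wild type, although 51 had a log2 ratio between 1 and 3. In mutant antheridia their median level was 14.4 CPM, against 362 CPM for the members, and in wild type antheridia 17.3 CPM, against 232 CPM for the members. In the mutant, edgeR called 24 of the 251 higher in antheridia than in archegonia, or 9.56%, and 1 lower, or 0.398%, against the 6.74% and 1.33% of all genes. Their median log2 fold change was 0.18. The 24 genes lie beside 24 members, and 148 of the 150 members were above both of their adjacent genes in mutant antheridia. Since neighbours that were antheridium genes in wild type had been left out by the rule, the low level of the adjacent genes in wild type is no finding.

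Most of the other antheridium genes were also called in the mutant. Between its organs edgeR called 136 of the 150 members, or 90.7%, 266 of the 324 less abundant isolated antheridium genes that were tested, or 82.1%, and 87 of the 94 antheridium genes with an adjacent antheridium gene, or 92.6%. The median log2 fold changes were 6.70, 6.05 and 6.97 in the same order, and the median level in wild type antheridia was 232, 35.1 and 47.3 CPM. For mutant over wild type antheridia the medians were 0.73, 0.64 and 0.73. For mutant over wild type archegonia they were -0.63, -0.82 and -0.70. A high share in mutant antheridia 2 was also seen for the 94 genes with an adjacent antheridium gene, which held 0.967%, 2.43% and 1.11% of counts in mutant antheridia, against 0.944%, 0.880% and 1.54% in wild type antheridia. No difference between these sets was tested, and the level and the isolation on the chromosome that set the members apart come from the rule.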

How the data were processed

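RNA-seq was measured in 12 libraries of 8 pooled organs, grouped by the sample titles. The authors deposited whole-number read counts for 32926 genes and their own DESeq2 tables of log2 fold changes and p-values. Per the submitters' processing notes, Trim Galore 0.6.6, cutadapt 2.10, HISAT2 2.1.0 and DESeq2 2.11.40.6 were used; build, annotation and counting settings are not given in the sources used. Per the labels' protocols, cDNA was made by Smart-seq2, which marks no strand and carries no molecular identifiers, so reads of overlapping genes or near-identical copies cannot be told apart, and floors and intervals (exact Poisson, 95%) cover counting error only.

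Levels are CPM of the deposited counts over the column total. Differences were tested with edgeR 4.0.16 (R 4.3.3; quasi-likelihood, robust, non-legacy, TMM, filterByExpr) in a single fit of 4 group means, with Benjamini-Hochberg adjustment over 22792 genes and calls at an adjusted p under 0.05. The standard error is the absolute log2 fold change over the square root of F. The test was tried on simulated data. DESeq2 1.42.0 and limma 3.58.1 were alternatives. In the authors' deposited tables the sign matched that of the counts for every called gene.

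Of the identifiers, 0 matched the 27567 RefSeq genes of ASM5946719v1, so no names or sequences are given. The members and lists were chosen with earlier results of these data known. Named genes are the 4 most abundant members and, per comparison, at most 2 higher and 2 lower: the largest changes among called members whose groups do not overlap and with at least 10 CPM in the higher group, or the smallest p where none was called. No replicate pair agreed within sampling noise (lowest chi-square per degree of freedom 102). The organs were collected on 3 occasions, and which libraries share an occasion is not labelled.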

Additional observations from a re-analysis of the deposited data

Results flagged for a closer look

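In 2 members every mutant antheridium library was above every wild type one while every mutant archegonium library was below every wild type one; 37 of the genes tested, or 0.162%, had this pattern. For Pp3c7_8820, whose values are given above, the difference between genotypes in antheridia, less the same difference in archegonia, was 5.62 ± 0.89 (SE) on the log2 scale, with an edgeR adjusted p of 0.61. DESeq2 gave an adjusted p of 2.42e-07. Without the library labelled mutant antheridia 1 the edgeR adjusted p was 0.0487, and over all alternatives it ran from 2.42e-07 to 1. For Pp3c1_17870 it was 2.42 ± 0.86 (SE), with an edgeR adjusted p of 0.961. Pp3c1_17870 had 983, 2900 and 873 CPM in mutant antheridia, against 805, 638 and 869 CPM in wild type antheridia, and 47.7, 22.1 and 37.0 CPM in mutant archegonia, against 51.9, 49.0 and 140 CPM in wild type archegonia. Its groups were separated by narrow gaps, 873 against 869 CPM in antheridia and 47.7 against 49.0 CPM in archegonia. Without mutant antheridia 2 its value was 1.50. Neither difference passed edgeR's test over all genes with all 12 libraries.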

How the results depend on the processing

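Members called higher in mutant antheridia than in mutant archegonia numbered 115 to 140 when single libraries were left out. The counts were 136 with DESeq2 size factors, 133 with no filter, 139 with DESeq2, 125 with limma-voom, 118 with the legacy fit and 110 with the 6 libraries compared alone. Of all the alternative fits, only DESeq2 and limma-voom have the share of all genes called given above. The median log2 fold change was 6.35 to 7.61 with single libraries left out. It was 5.77 without the 3 libraries poorest in detected genes, a setting decided on after the data had been seen. That setting leaves the library labelled mutant antheridia 1 as the only mutant antheridium library. Between the genotypes 0 members were called in antheridia in all 20 alternatives; the median was 0.08 to 1.03 with single libraries left out and -0.68 without those 3 libraries. In archegonia 1 member was called with DESeq2 and 0 in the others, and the median was -1.23 to 0.12 with single libraries left out. Pp3c13_15660 reversed to -0.20 without the 3 libraries and Pp3c12_3940, at -10.56 to 0.15 with single libraries left out, to 0.15 without wild type archegonia 3. For wild type antheridia against wild type archegonia 64 to 125 members were called with single libraries left out, the lowest without wild type archegonia 2 and 69 without wild type archegonia 1. The members' mean share of mutant antheridia was 7.55% to 10.8% with members chosen without 1 wild type library or with TMM-adjusted totals. Other settings of the rule kept 105 (log2 ratio of 2) to 150 of the 150 members, and 119 to 139 with a wild type library left out. Limma-voom moved the median of all genes to -0.17 in both antheridium comparisons. Fitted with the replicate number as a block, 125 members were called between the organs of the mutant (median 6.84) and 0 between genotypes. Same-numbered libraries had correlations of deviations of -0.453 to 0.220, and 4 of 12 correlated best with their own number. Which libraries share an occasion is not labelled, so these values do not settle whether the numbers pair the libraries. The cause of these shifts was not tested. Depth limits levels below 0.0753 to 0.158 CPM.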
